A study of Mus musculus with 2 samples.

Results

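The genes described here encode the machinery of oxidative phosphorylation. They were chosen by symbol: every protein-coding mouse gene whose name begins with Nduf (complex I), Sdh (complex II), Uqcr (complex III), Cox4 to Cox8 (complex IV) or Atp5 (complex V, the ATP synthase). Each gene was counted under the complex of its symbol, whatever complex its protein joins. The rule took 100 of 21887 protein-coding genes of the RefSeq annotation of build GRCm38 (mm10): 49 of complex I, 8 of complex II, 8 of complex III, 18 of complex IV and 17 of complex V. Of these, 88 encode subunits or their paralogs and 12 encode assembly factors (Ndufaf and Sdhaf). Open chromatin was mapped with ATAC-seq, where a transposase inserts adapters into accessible DNA, in hematopoietic stem cells sorted as CD48-CD150+LSK from the bone marrow of wild-type C57BL/6J mice. The control cells carried an empty pMSCV retrovirus, and the H1C cells carried MSCV-H1C, which delivers the linker histone gene now named H1f2. Each group had 1 library, made from about 1000 cells. The age and number of the animals, the number of transduced clones and the share of cells that carried virus were not stated. With 1 library per group there is no replicate check and no test between conditions. The intervals below are exact 95% intervals and cover counting error only, since amplified fragments are not independent molecules.

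Complexes I and II pass electrons from NADH and succinate to coenzyme Q, complex III passes them to cytochrome c, and complex IV passes them to oxygen. Complexes I, III and IV pump protons, and complex V uses the resulting gradient to make ATP. Hematopoietic stem cells at rest are known for leaning on glycolysis, while their differentiating progeny depend more on respiration. Most subunits are encoded in the nucleus and expressed in nearly all cells, and some subunits of complex IV have paralogs limited to muscle, lung or testis. The factors NRF1, GABP (an ETS factor) and YY1 are known to bind promoters of this group. Linker histone H1 binds the nucleosome where DNA enters and leaves it and compacts chromatin.

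The control library had 32005 accessible regions in its deposited list and the H1C library had 13156, and neither had a region on the mitochondrial genome, which encodes the remaining respiratory subunits. A gene was said to have a region where an entry lay within 1000 bp of either annotated end. The genome-wide background scales with depth. It was 3.99 stacked fragments or reads in control and 4.40 in H1C, and their ratio was 1.10. The lowest summit pileup (fragments or reads stacked at the highest point of a region) was 12 in control and 14 in H1C. Of 10 stem cell marker genes, 5 had a control region, with pileups from 18 to 28 (Kit, Ly6a, Slamf1, Hlf and Meis1), and the other 5 had none. Markers of other cells also had control regions: 1 of 5 myeloid, 1 of 5 erythroid and megakaryocyte, 3 of 5 lymphoid, 2 of 3 mast cell and 4 of 5 non-hematopoietic genes, and so did Cd48, at a pileup of 23. In H1C none of the 10 stem cell markers had a region, and of the others only Cd79a and Mitf did. Over all protein-coding genes 46.9% had a control region and 33.6% an H1C region. The 5 stem cell marker regions were weak in control, with −log10 p from 6.69 to 11.8. Among other genes with a control −log10 p of 9.38 or less, 10.3% also had an H1C region. Between 9.39 and 13.5 the share was 24.2%. The marker lists therefore did not set the labelled cell type apart, and an accessible gene end is not a measure of expression.

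Regions at oxidative phosphorylation genes were common in control and most were also found in H1C. In control 85 of the 100 genes had a gene-end region (85%, interval 76.5 to 91.4), against 46.9% of all protein-coding genes. In H1C 72 of the 100 had one, against 33.6%. All 72 were genes with a control region, so 84.7% of the 85 were kept (interval 75.3 to 91.6), against 71% of all genes with a control region. The other 13 had a region in control only, against 29% of all genes with a control region. The remaining 15 had a region in neither library, against 52.8% of all genes, and no gene of the group had one in H1C only, against 0.288%. At each of the 72 kept genes an H1C region overlapped the strongest control region. By complex, the kept genes were 39 of 45 with a control region in complex I (86.7%, interval 73.2 to 94.9), 8 of 8 in complex II (100%, interval 63.1 to 100), 5 of 7 in complex III (71.4%, interval 29.0 to 96.3), 7 of 10 in complex IV (70.0%, interval 34.8 to 93.3) and 13 of 15 in complex V (86.7%, interval 59.5 to 98.3). These intervals overlap, so the complexes could not be ranked. Assembly factors kept 11 of 12 (91.7%, interval 61.5 to 99.8), and subunits kept 61 of 73 (83.6%, interval 73.0 to 91.2).

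**Figure D1:**
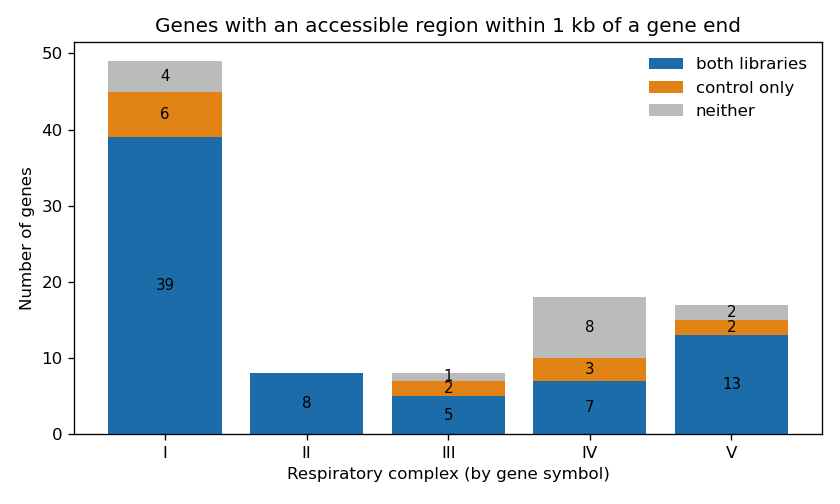
Each stacked bar is 1 respiratory complex and gives the number of its genes (vertical axis) with a gene-end region in both libraries, in control only or in neither. Complex II has all 8 genes in both libraries, and complex IV has 8 of 18 genes in neither.

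Promoter sequences show what lies under these regions. RefSeq sequences of build GRCm38.p6, from 250 bases before to 50 bases after the gene start, were at hand for 82 of the 100 genes. The 250 bases before the start are printed for the kept gene of each complex with the highest control −log10 p among those 82, and for Atp5k, the gene with a region in control only that had the highest control −log10 p. Capitals mark the letters matched in a search described further on. The control region covered all 250 bases at 4 of the 6 genes, 84.8% at Sdhb and 88.8% at Atp5k.
Ndufb5: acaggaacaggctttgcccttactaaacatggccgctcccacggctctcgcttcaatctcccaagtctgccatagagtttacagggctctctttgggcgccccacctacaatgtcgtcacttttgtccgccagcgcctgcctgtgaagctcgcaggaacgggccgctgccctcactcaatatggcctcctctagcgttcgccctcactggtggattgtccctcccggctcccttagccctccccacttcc
Sdhb: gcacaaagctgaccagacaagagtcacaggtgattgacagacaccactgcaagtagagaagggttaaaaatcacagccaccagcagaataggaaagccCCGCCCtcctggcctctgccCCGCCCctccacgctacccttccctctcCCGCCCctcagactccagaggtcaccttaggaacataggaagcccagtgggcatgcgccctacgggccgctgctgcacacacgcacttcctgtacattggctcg
Uqcrh: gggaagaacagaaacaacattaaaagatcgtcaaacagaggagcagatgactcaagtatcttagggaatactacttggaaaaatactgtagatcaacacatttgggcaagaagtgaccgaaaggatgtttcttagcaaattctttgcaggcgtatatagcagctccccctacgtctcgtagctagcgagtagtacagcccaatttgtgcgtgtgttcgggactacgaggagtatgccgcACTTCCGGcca
Cox7a2l: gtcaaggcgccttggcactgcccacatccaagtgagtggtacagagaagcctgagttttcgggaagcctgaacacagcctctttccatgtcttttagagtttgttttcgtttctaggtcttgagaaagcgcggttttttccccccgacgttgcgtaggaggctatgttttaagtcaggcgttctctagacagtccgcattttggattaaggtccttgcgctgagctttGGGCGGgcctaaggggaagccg
Atp5g1: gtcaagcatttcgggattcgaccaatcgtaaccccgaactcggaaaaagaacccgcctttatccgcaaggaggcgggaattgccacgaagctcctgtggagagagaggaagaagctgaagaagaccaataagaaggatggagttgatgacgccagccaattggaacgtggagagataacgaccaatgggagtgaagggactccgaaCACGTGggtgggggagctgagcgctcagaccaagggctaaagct
Atp5k: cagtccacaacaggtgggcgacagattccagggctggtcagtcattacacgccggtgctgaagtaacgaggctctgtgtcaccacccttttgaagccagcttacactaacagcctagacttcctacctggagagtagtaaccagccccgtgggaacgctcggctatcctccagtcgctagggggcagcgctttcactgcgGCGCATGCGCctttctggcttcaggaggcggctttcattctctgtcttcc
The stretches lie at chr3:32736813-32737062 on the plus strand (Ndufb5), chr4:140961021-140961270 on the plus strand (Sdhb), chr4:116075071-116075320 on the minus strand (Uqcrh), chr17:83514334-83514583 on the minus strand (Cox7a2l), chr11:96075632-96075881 on the minus strand (Atp5g1) and chr5:108434400-108434649 on the minus strand (Atp5k). They differ in what they hold. Uqcrh has the long ETS letters next to its start, Sdhb has 3 SP/KLF matches, Cox7a2l has 1 SP/KLF match, Atp5g1 has an E-box, Atp5k has a full NRF1 match, and Ndufb5 has none of the letters searched.

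Complex I, the NADH dehydrogenase, had the most genes and the deepest control region of the group. Ndufs8, a core subunit that carries iron-sulfur clusters, had a pileup of 100 in control and 63 in H1C, at chr19:3912455-3913132 in control, with a fold over local background of 8.25 and 6.71. Ndufb5, an accessory subunit, went from 91 to 48 at chr3:32736663-32737260, and Ndufa6 went from 87 to 57. These 3 had the highest −log10 p of the complex in control (64.1 for Ndufb5, 61.3 for Ndufa6 and 58.7 for Ndufs8). Each pileup was lower in H1C. The flavoprotein subunits Ndufv1, which binds FMN, and Ndufv2 had pileups of 78 and 76 in control and 39 and 50 in H1C. Ndufs7, a core subunit of the arm that reduces coenzyme Q, went from 49 to 36. At the low end, Ndufs4 had 26 in control and 24 in H1C. Ndufa1, which lies on the X chromosome, had 18 in control and 24 in H1C, and it was the only gene of the group with a higher pileup in H1C.

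Of complex I, 6 genes had a region in control only, among them Ndufa9 with a pileup of 20, Ndufaf1 with 21, Ndufb8 with 29, Ndufc2 with 32 and Ndufs1 with 42. Ndufs1 is a core subunit, and Ndufaf1 takes part in assembly. The region of Ndufs1 also lay within 1000 bp of an end of Eef1b2. Within the Ndufa genes 13 of 14 with a control region were kept, within Ndufb 10 of 11, within Ndufc 1 of 2, within Ndufs 5 of 7 and within Ndufv 3 of 3. The region taken for Ndufb6 was at its 3′ end, next to Topors and Smim27, so its values cannot be told apart from theirs.

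Complex II, succinate dehydrogenase, also belongs to the citric acid cycle, and all 8 of its genes were kept. Sdhb, the iron-sulfur subunit, had a pileup of 92 in control and 55 in H1C at chr4:140961059-140961681. Sdha, the flavoprotein subunit, went from 40 to 21. The membrane anchors Sdhc and Sdhd went from 44 to 29 and from 47 to 31. All 4 subunits were thus lower in H1C, with log2 ratios of H1C to control, after scaling to the genome-wide background, between −1.07 (Sdha) and −0.74. The assembly factors Sdhaf1, which serves the iron-sulfur subunit, and Sdhaf2, which serves the flavoprotein, had control pileups of 82 and 58 and H1C pileups of 53 and 33. Sdhaf4 was the weakest, at 23 and 18.

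Complex III, the cytochrome bc1 complex, kept 5 of 7 genes with a control region. Uqcrq went from 75 to 57, Uqcrh from 64 to 35, Uqcrc2 (a core protein) from 58 to 41, Uqcr10 from 53 to 30 and Uqcrfs1, the Rieske iron-sulfur protein, from 53 to 22. Uqcrfs1 had the largest drop of the 5, with a log2 ratio of −1.41. The summits of Uqcrh and Uqcr10 lay 345 and 359 bp apart between the libraries, and the Uqcr10 control summit was outside its H1C region. Uqcr11 and Uqcrb had a region in control only, at pileups of 37 and 34. The Uqcrb region also lay near an end of the predicted gene Gm10767. Uqcrc1, the other core protein, had a region in neither library.

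Complex IV, cytochrome c oxidase, had the lowest share of genes with a control region, 10 of 18 (55.6%), and 5 of its 8 genes with a region in neither library were paralogs limited in tissue. The main isoforms Cox4i1, Cox5b, Cox6a1, Cox7c and Cox8a had control pileups of 66, 61, 61, 56 and 54 and H1C pileups of 42, 36, 30, 26 and 44. Cox7a2l, which is known for joining complexes III and IV into supercomplexes, went from 65 to 31. All 6 were lower in H1C, and Cox8a changed least of these, with a log2 ratio of −0.44. Cox6b1 and Cox6c had a region in control only, at pileups of 35 and 25. There were 8 paralogs known as limited in tissue or condition, 7 of complex IV and Ndufa4l2, counted under complex I by symbol. Of these, the muscle isoform Cox7a1 was kept at 30 and 20. The lung isoform Cox4i2 had a region in control only, at a pileup of 17. The other 6 had a region in neither library: the muscle isoforms Cox6a2 and Cox8b, the testis isoforms Cox6b2, Cox7b2 and Cox8c, and Ndufa4l2, which is known for its induction by low oxygen. Without the paralogs, complex IV kept 6 of 8 genes with a control region, of 11 genes in all.

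Complex V kept 13 of 15 genes with a control region. Atp5g1, Atp5g2 and Atp5g3 all encode the c subunit of the rotor ring, and their control pileups were 98, 73 and 33. Their H1C pileups were 63, 33 and 26, so the order of the 3 was the same in both libraries. The Atp5g1 region, at chr11:96075534-96076214, had the highest −log10 p of the whole group in both libraries, 67.7 in control and 43.4 in H1C. Atp5b (beta) went from 72 to 33, Atp5c1 (gamma) from 63 to 42 and Atp5e (epsilon) from 72 to 27. Atp5j went from 91 to 49, and its region was shared with Gabpa, which encodes the alpha subunit of GABP. The weakest kept genes were Atp5j2, at 31 and 28, and Atp5l, at 31 and 21. Atp5o, which encodes the stalk subunit known for oligomycin sensitivity, and Atp5k had a region in control only, at pileups of 44 and 43. These 2 were the deepest control regions among the 13 genes without one in H1C.

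**Figure D2:**
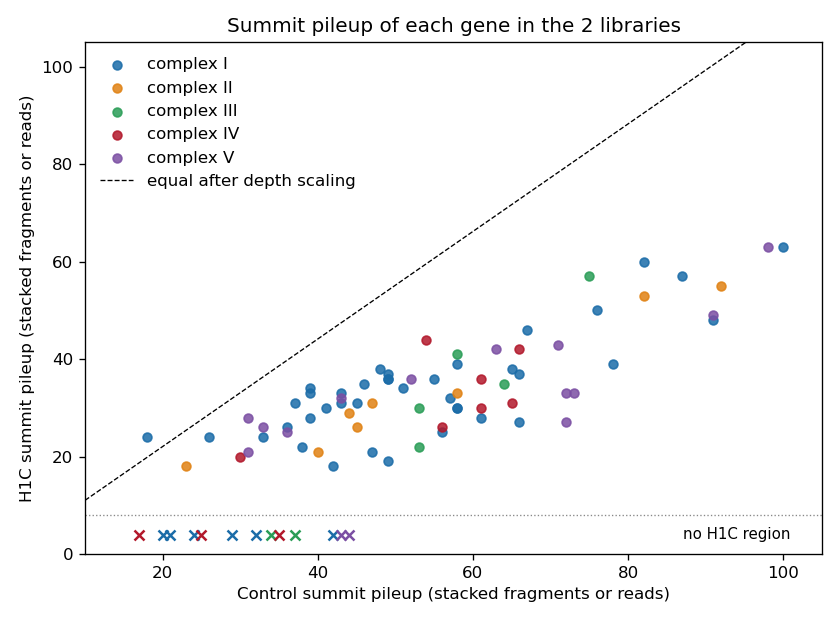
Summit pileup in H1C (vertical axis) against control (horizontal axis), both in stacked fragments or reads, with 1 point per kept gene coloured by complex, crosses at the bottom for genes with a region in control only, and a dashed line where the pileups would be equal after depth scaling. All points except Ndufa1 (18 and 24) lie below the line, and the 13 crosses lie between control pileups of 17 and 44.

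The 13 genes with a region in control only were among the weaker ones in control. Their median pileup was 32 (range 17 to 44) and their median −log10 p was 15.7 (range 5.91 to 23.2), against 53.5 and 31.2 for the 72 kept genes. The groups overlapped: 22 kept genes had a control pileup of 44 or less, and their H1C pileups were between 18 and 34. The cutoff of 44 was the highest control pileup among the 13 genes. By that choice all 50 genes above it were kept, so their share is not a result. Of the 35 at or below it 62.9% were kept, beside 39.1% of the 4378 other genes at or below it. These shares rest on the same cutoff and were not matched for strength below it, so no conclusion was drawn from them. At none of the 13 did an H1C region overlap the control region, and the nearest H1C region was between 3064 bp (Uqcr11) and 226650 bp (Cox6c) from the gene. An absent region means that the authors' caller listed none there, not that the DNA was closed, since no H1C entry with a solved pileup had one under 14.

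The same dependence on strength was seen across all genes, so the share kept was compared within 10 bins of the control −log10 p. Among other genes the share rose from 10.3% in the lowest bin (3.62 to 9.38) to 99.8% in the highest (56.3 to 114). The oxidative phosphorylation genes kept 1 of 4 and 2 of 4 in the lowest 2 bins, 4 of 6 in the third, 8 of 12 in the fourth and 12 of 14 in the fifth. The corresponding shares of other genes were 10.3%, 24.2%, 44.7%, 63.3% and 83.6%. In the upper 5 bins 45 of 45 were kept (100%, interval 92.1 to 100), beside 96.7% of 5087 other genes. In the lower 5 bins 27 of 40 were kept (67.5%, interval 50.9 to 81.4), beside 45.1% of 5092 other genes (interval 43.7 to 46.5). Within the lower 5 bins the 40 genes were not spread evenly, with 26 in the upper 2 of them. With the other genes weighted to the same bins, 78.3% were kept, which would be 66.5 of 85. The difference was 6.41 percentage points, and its interval of −3.02 to 13.3 includes 0. Without the bins the gap was 13.8 points. By complex, the weighted share of other genes was 76.8% for complex I, 82.7% for II, 82.9% for III, 72.2% for IV and 82.4% for V, each inside the interval of that complex.

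**Figure D3:**
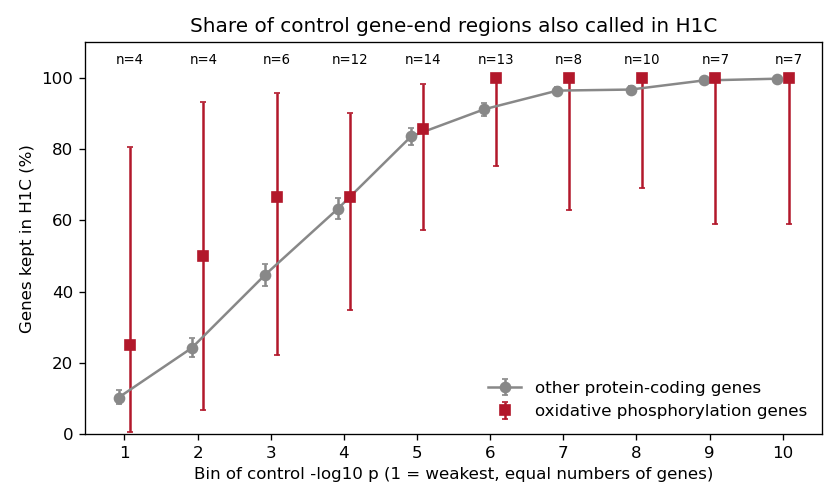
Share of genes kept in H1C (vertical axis, percent) in 10 bins of the control −log10 p (horizontal axis), for oxidative phosphorylation genes (squares, with their number above) and for all other genes (circles), with exact 95% intervals as bars. Both rise with the bin, from 10.3% to 99.8% in other genes, and the intervals of the oxidative phosphorylation genes are wide because a bin holds 4 to 14 of them.

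The deposited columns describe the regions within each list. In control the 85 regions had a median fold of 7.33 (quartiles 5.81 and 8.64; other genes 6.81), a median −log10 p of 29.1 (other genes 27.1) and a median −log10 q of 25.6 (other genes 23.7). Their median width was 559 bp (other genes 542 bp), and the summit lay at a median of 269 bp from the region's left end (other genes 227 bp). In H1C the 72 regions had a median fold of 5.09 (other genes 5.25), a −log10 p of 14.8 (other genes 16.3), a −log10 q of 11.3 (other genes 12.7), a width of 374.5 bp (other genes 400 bp) and a summit offset of 170 bp (other genes 177 bp). The medians thus lay slightly above those of other genes in control and slightly below them in H1C. Median pileups were 49 in control for both sets, and 33 in H1C beside 35 for other genes. The widest named regions were those of Uqcrh (1062 bp in control and 651 bp in H1C) and Atp5j (1053 bp and 683 bp). H1C regions were narrower at 67 of 72 kept genes (93.1%), near the 91.5% of all kept genes, with a median change of −172 bp beside −162 bp for other genes.

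Summit pileups at kept genes were lower in H1C at 71 of 72 genes (99.3% of all kept genes were lower), after scaling by the ratio of the genome-wide backgrounds. The median log2 ratio was −0.75 (quartiles −1.04 and −0.59), beside −0.86 for other genes and −0.84 for other genes weighted to the same bins. Within bins, 42 of the 72 lay above their bin's median of other genes and 30 below. By complex the medians were −0.71 (I), −0.83 (II), −0.96 (III), −0.90 (IV) and −0.73 (V), and the genes of each complex overlapped with those of every other. The interval of a single gene was wholly below 0 at 47 of 72 genes (65.3%), against 77.1% of all kept genes. It was above 0 at none, against 0% of all kept genes. The lowest ratios were those of Atp5e (72 to 27, log2 −1.56, interval −2.25 to −0.90), Ndufb2 (49 to 19, −1.51, interval −2.36 to −0.72) and Ndufaf3 (66 to 27, −1.43, interval −2.13 to −0.77). At Ndufb2 the summits of the libraries lay 247 bp apart, and the control summit was outside the H1C region, so its ratio does not compare 1 site. The highest ratios were those of Ndufa1 (18 to 24, 0.27, interval −0.67 to 1.24) and Ndufs4 (26 to 24, −0.26, interval −1.12 to 0.60), both with 0 inside the interval. The size of these ratios rests on the scaling: with the ratio of local backgrounds at kept genes (0.867) in place of 1.10, the median was −0.40. A region weak in control could be kept only where its H1C pileup reached the caller's limit, so ratios of weak genes are bounded from below.

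**Figure D4:**
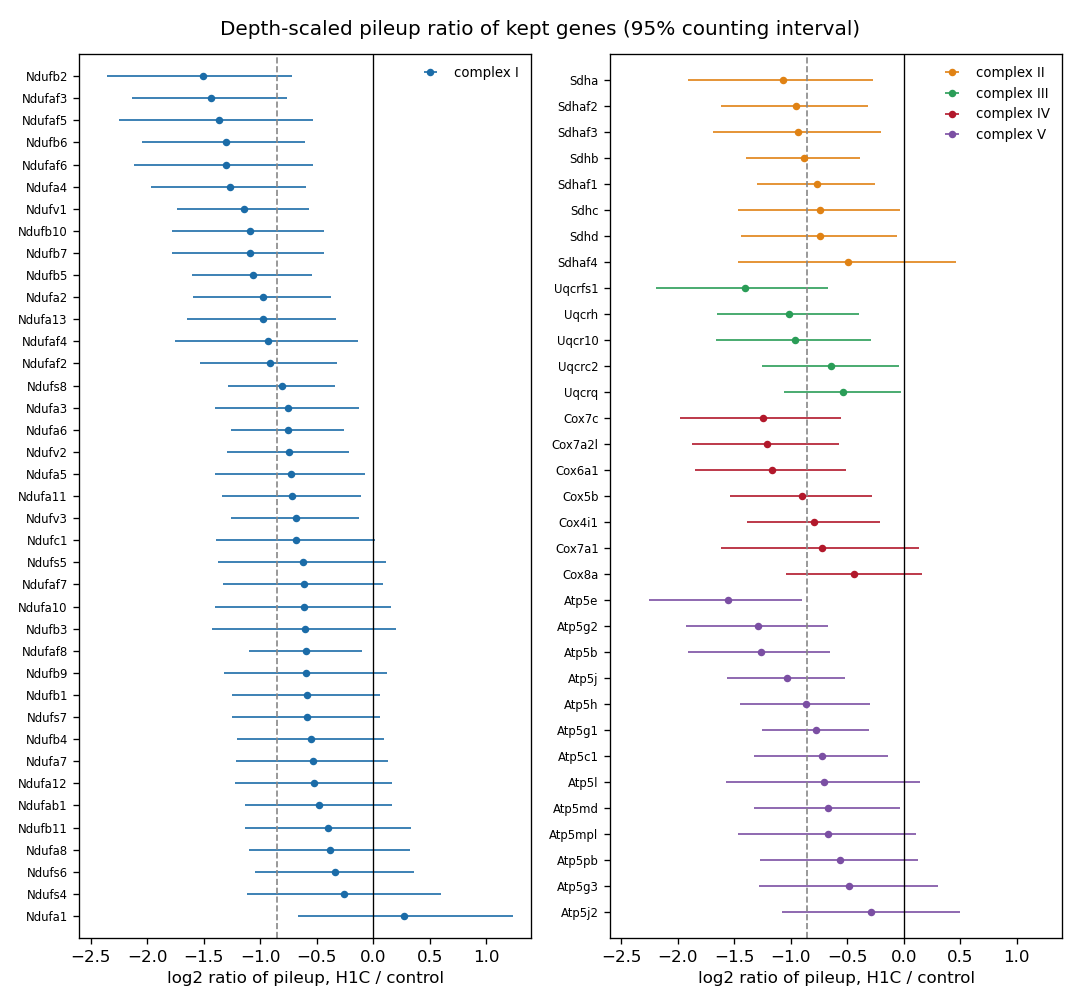
Log2 ratio of summit pileup, H1C to control, for each of the 72 kept genes by complex (points) with exact 95% counting intervals (bars), and a dashed line at the median of other kept genes, −0.86. All points except Ndufa1 lie below 0, and the intervals of neighbouring genes overlap widely.

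The 15 genes with a region in neither library fell into 3 sets. Ndufa4l2 and the 5 other paralogs named above made up 6, and Ndufb4b and Ndufb4c, copies of Ndufb4, made up 2. Reads from such copies may map to more than 1 place, and the treatment of these reads was not stated. The other 7 are widely expressed genes: Ndufs3, Uqcrc1, Cox5a, Cox7a2, Cox7b, Atp5a1 and Atp5d. At Cox5a, Cox7a2 and Atp5d the annotated gene extends beyond the RefSeq transcript start of the promoter table, and a region lay at that start in both libraries. Its pileup was 67 in control and 33 in H1C at Cox5a, with the summit 10 bp from that start in control, 53 and 27 at Cox7a2, with the summit 74 bp away, and 66 and 38 at Atp5d, with the summit 2 bp away. These 3 regions lay at transcript starts but outside the window around the gene ends. Ndufa4l2 also had a region inside the gene in both libraries, at pileups of 45 in control and 26 in H1C. In control it lay 3582 bp from an end, and its distance from a transcript start was not known. At Cox7b the nearest control region lay 3599 bp outside the gene, at Magt1. Ndufs3 (complex I core), Uqcrc1 (complex III core) and Atp5a1 (the alpha subunit of ATP synthase) had no control region within 40 kb. Their nearest ones lay 47121, 41851 and 151102 bp away, and 45.6% of protein-coding genes with no control region at an end lay more than 40 kb from any control region (24.2% of all protein-coding genes). At the edge of the window, Atp5g3 was the kept gene whose nearest region lay farthest inside it, at 792 bp, and Atp5d had its nearest region 2628 bp from an end.

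The regions of this group often lay near an end of a second gene. In control 39 of 85 (45.9%) also lay within 1000 bp of an end of another protein-coding gene, beside 28.4% of the regions of other genes and 29.8% with bins weighted. Complex I held 24 of the 39, complexes II and III 4 each, complex IV 1 and complex V 6. Of the shared regions 36 of 39 were kept (92.3%), beside 83.0% of all other genes in the same bins, whether their regions were shared or not. Of the unshared regions 36 of 46 were kept (78.3%), beside 74.3% of all other genes in their bins. No pair of genes in the group shared a region.

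Regions sat close to gene starts. Strand was known for 72 of the 85 genes with a control region, and the region lay at the start only in 70 of them, beside 7677 of 8263 other genes. With regions at both ends counted as well, the shares were 98.6% and 94.3%. The control summit lay a median of −50.5 bp from the start (quartiles −93.75 and −14.5, negative values upstream), and 64 of 72 summits were upstream (88.9%, beside 71.4% of other genes). Within 100 bp of the start were 52 of 72 (72.2%, beside 57.9%). In H1C the median was −50 bp over 64 genes, with 50 within 100 bp (78.1%, beside 57.8%). The summit moved by a median of 26 bp between libraries (other genes 24 bp), and by 50 bp or less at 49 of 72 kept genes (68.1%, beside 71.6% of other genes). The median in complex III was 100 bp. Large moves were 359 bp at Uqcr10, 345 bp at Uqcrh, 319 bp at Sdhaf2, 287 bp at Cox7a2l and 247 bp at Ndufb2. At these genes the pileups of the libraries were not taken at the same point.

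**Figure D5:**
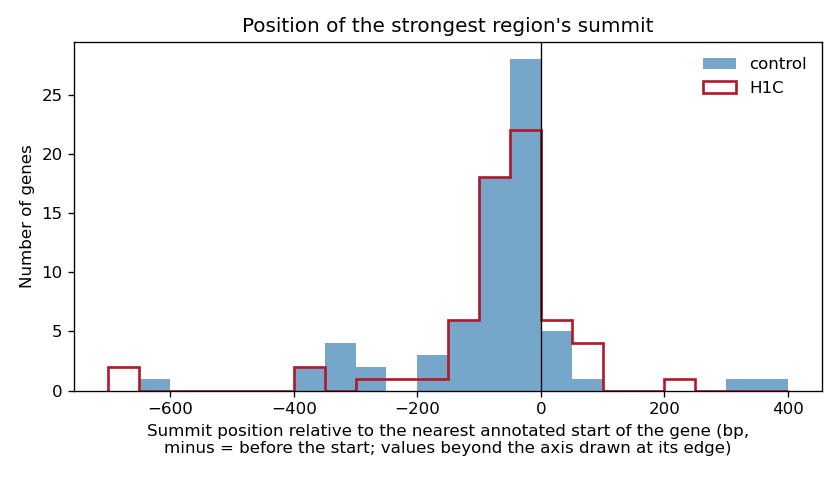
Number of genes (vertical axis) by distance of the region summit from the nearest annotated start of the gene (horizontal axis, bp, negative values upstream, values beyond the axis drawn at its edge), in control (filled) and in H1C (outline). Both distributions peak just upstream of the start, with medians of −50.5 bp in control and −50 bp in H1C.

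Promoters of the group were searched on both strands for letters of factors known to bind them. The full NRF1 palindrome was in 7 of 82 promoters (8.54%), beside 1.33% of all 17492 promoters of the table and 2.31% of those of other genes with a control region. With any base at its sixth letter, a search that includes the full palindrome, it was in 20 of 82 (24.4%), beside 6.66% and 11.6%. The YY1 letters AAGATGGC were in 10 (12.2%), beside 3.21% and 5.06%. The ETS core CCGGAA was in 31 (37.8%), beside 19.1% and 31.1%, and the longer ETS letters CCGGAAGT, which contain the core, were in 5 (6.10%), beside 5.28% and 9.45%. The SP/KLF letters GGGCGG were in 39 (47.6%), beside 46.3% and 66.9%, the E-box CACGTG in 6 (7.32%), beside 7.91% and 10.9%, and the CRE TGACGTCA in 4 (4.88%), beside 2.33% and 3.55%. NRF1 and YY1 letters were thus held by larger shares of these promoters than of those of other genes with a control region, and SP/KLF letters by a smaller share. The 82 promoters included 10 of genes with a region in neither library. At least 1 of the NRF1 (any middle base), ETS core and YY1 letters was in 51 of 82 (62.2%), beside 25.6% and 41.5%. Median GC content was 58.5%, above the 56.3% of all promoters and below the 61.3% of other genes with a control region. The median CpG observed over expected ratio was 0.831, beside 0.577 and 0.785. A match is a run of letters, not a bound site. The 7 full NRF1 matches are shown in 30-base windows, with the matched letters in capitals, on the strand of the gene.
Ndufa11: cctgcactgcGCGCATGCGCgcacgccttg
Ndufaf4: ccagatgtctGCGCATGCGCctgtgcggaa
Ndufaf5: agtcccgttgGCGCATGCGCctaatagaaa
Uqcrc1: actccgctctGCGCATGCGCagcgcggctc
Cox6a1: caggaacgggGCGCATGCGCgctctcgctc
Atp5g2: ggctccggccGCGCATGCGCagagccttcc
Atp5k: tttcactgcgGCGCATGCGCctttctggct
They lie at chr17:56717692-56717721 (plus strand), chr4:24897960-24897989 (plus strand), chr2:140170652-140170681 (plus strand), chr9:108936668-108936697 (plus strand), chr5:115349101-115349130 (minus strand), chr15:102671070-102671099 (minus strand) and chr5:108434430-108434459 (minus strand), in that order. Of these 7 genes, 5 were kept, Atp5k had a region in control only and Uqcrc1 had none, so the same letters stood in promoters of all 3 classes. At Ndufa11 the letters lay outside the kept region, in a second control region at chr17:56717589-56717931 with a pileup of 45. H1C had no region at that place.

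The ETS core was unevenly held. It was in 7 of the 8 control-only promoters in the table (87.5%, interval 47.3 to 99.7), in 22 of 64 kept promoters (34.4%, interval 22.9 to 47.3) and in 2 of 10 promoters with a region in neither library. Among other genes the shares were 23.5% of control-only and 34.0% of kept promoters, so the order was the opposite. This contrast was picked out after its values were seen and rests on 8 promoters. The windows of the 7 genes are shown with the core, or its reverse complement, in capitals, on the strand of the gene.
Ndufa9: aatgcagattccCCGGAAatatcaggtggt
Ndufaf1: gcgggaccacaaCCGGAAgcgtggcgaacc
Ndufc2: ccacttagaagcCCGGAAcctcgcgtgcag
Uqcr11: tttctctcctccCCGGAAgtagatgtcaat
Cox6b1: tcctctcgcagcTTCCGGccagtcggaatt
Atp5k: cctcagttgagcTTCCGGcgcgaaggtcac
Atp5o: ttaattttctggTTCCGGttcacgagtcca
In this order the windows lie at chr6:126849337-126849366 (minus strand), chr2:119662835-119662864 (minus strand), chr7:97399989-97400018 (plus strand), chr10:80406870-80406899 (minus strand), chr7:30626124-30626153 (minus strand), chr5:108434369-108434398 (minus strand) and chr16:91931737-91931766 (minus strand). The core of Ndufc2 begins 2 bases before the start and runs across it. That of Ndufaf1 begins 18 bases before the start, and that of Atp5k begins 13 bases after it. That of Ndufa9 lies 210 bases before the start and outside the control region of the gene. Uqcr11 has 2 matches, of which 1 is shown. Median GC content was 52.7% in the 8 control-only promoters and 59.5% in the 64 kept ones, and the part of base composition in this contrast was not tested.

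Other genes of mitochondrial respiration, outside the symbol rule, were taken from a list of 57. Of these 53 had a control region and 39 were kept (73.6%, interval 59.7 to 84.7), beside 78.6% of other genes in the same bins, and their median log2 ratio was −0.85. Cycs, which encodes cytochrome c, went from 84 to 55, and genes for cytochrome c and the assembly of complex III kept 7 of 8. Complex IV assembly kept 14 of 17, complex I assembly outside the Nduf names 5 of 7, and coenzyme Q synthesis 6 of 9. Both ATP synthase assembly genes with a control region had none in H1C, at control pileups of 20 and 22. Among regulators of mitochondrial transcription, Nrf1 went from 71 to 38, Gabpa from 91 to 49, Yy1 from 92 to 59 and Tfam, which packages mitochondrial DNA and helps start its transcription, from 75 to 38. Polrmt, the mitochondrial RNA polymerase, had a region in control only at a pileup of 64, above every control-only gene of the respiratory complexes. The coactivator genes Ppargc1a and Ppargc1b also had regions in control only, and Gabpb1 had none in either library.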

How the data were processed

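Regions were called per library, since each of the 2 libraries had its own deposited list. The submitters' processing notes name mm10 as build and, as tools, MACS2, featureCounts, Picard, Bowtie2 2.2.9 and Trim Galore 0.4.4. Their roles and settings, duplicate handling and cut-site shifts are not given in the sources used here. Duplicates left in would raise pileups. In the deposited lists the fold is a ratio of summit pileup to local background (1 added to both), beside the authors' −log10 p and −log10 q values, a score derived from q (not used) and the summit's distance from the left end of the region. The lowest deposited −log10 q values were 1.31 (control) and 1.34 (H1C).

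The members and gene lists were chosen with earlier results of these data known. A gene took the strongest entry, by −log10 p, within 1000 bp of either end in the RefSeq table of GRCm38.p6; 1 kb of any transcript start was an alternative. Pileup and local background were solved from fold and Poisson −log10 p (whole within a tolerance of 0.0001; 32005 of 32005 control and 13155 of 13156 H1C entries). Ratios used the H1C entry overlapping the strongest control entry, divided by the ratio of genome-wide backgrounds. Intervals on shares are Clopper-Pearson 95% intervals, and those on ratios are exact conditional binomial ones. Other genes were weighted to the members' 10 equal-count bins of control −log10 p. Named were all genes not kept, the 3 strongest and 2 weakest kept genes per complex, the 3 lowest and 2 highest ratios, the catalytic core and the paralogs; further genes were named after their values were seen. Some genes that the rule takes are counted but not reported here by name. Strand and promoters came from the RefSeq promoter table, which held 17492 genes. The software was scipy 1.17.1, pandas 2.3.3 and numpy 2.4.6 under Python 3.11.15, with matplotlib 3.10.9 for plots, and the code was tested on simulated data. Alternatives changed the window, overlap, threshold, bins, scaling and member set.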

Additional observations from a re-analysis of the deposited data

How the results depend on the processing

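Over 58 alternatives for 5 results, 49 stayed within the spread of the reported value, 9 moved and 0 reversed. The share kept (84.7%) ranged from 70.6% to 89.7%, with the lowest value where at least 50% reciprocal overlap was required. The difference from other genes within bins (6.41 points) ranged from 3.62 to 13.8 and was below 0 in 0 of 18 alternatives; 13.8 came without bins. The count in both libraries (72) was 36 among the 46 genes with an unshared region, which are fewer by construction. The control-only count (13) was 8 with gene starts only, 8 with a control list as long as that of H1C and 8 with any transcript start, the last chosen after seeing the data. The median log2 ratio (−0.75) was −0.40 with the local background ratio, −0.61 without depth scaling and −0.91 for 26 genes of control pileup 60 or more. Where construction does not show it, the cause was not tested. No paired analysis was possible because there was 1 library on either side. H1C pileups under 14 were not listed, which limits what can be said of weak regions.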

Other observations

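Pseudogenes with the same symbol beginnings were outside the rule. Of 19 in the RefSeq table, 0 had a region within 1000 bp of an end in either library. The share over all pseudogenes was not computed, so this count cannot be set against that of pseudogenes in general.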
